A study of Homo sapiens with 8 samples.

Results

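The genes described here code for the enzymes and transporters that turn glucose into pyruvate and lactate, and for the oxygen sensors, hypoxia-inducible factors and hypoxia-induced genes that adjust this pathway when oxygen is low. They were chosen by name as 39 genes. A gene counted as measured where the array held a probe set annotated to that gene alone. This held for 36 of the 39, out of 19775 genes measured in all, and the 36 all passed a filter on dim genes that left 13647 genes to test. SLC16A1 and SLC16A3, which carry lactate across the cell membrane, and CA9, a carbonic anhydrase, were not analysed here. The measured genes were 22 of glucose transport, glycolysis and pyruvate use and 14 sensor, factor and hypoxia-induced genes.

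The study followed blood-forming differentiation of H9, an established human embryonic stem cell line, on 8 Affymetrix arrays of total RNA. Day 0 was undifferentiated and unsorted H9 cells, which were kept on mouse fibroblast feeders (2 arrays). Days 4, 6 and 8 of differentiation, with 2 arrays each, were cells sorted for KDR and CD31, surface proteins of endothelial cells and of the precursors shared by blood and endothelium. Differentiation used serum-free StemPro34 medium with BMP-4 and monothioglycerol, and the labels carry no genetic change in any group. Every group is 1 cell line, and the oxygen level of the cultures is not given in the sources used here. GEO's labels call the arrays of a group biological replicates without naming separate cultures, so p-values measure only the spread between these arrays. Since the day 0 cells were not sorted and were kept on feeders, day, sorting and culture conditions cannot be told apart in any comparison with day 0. The comparisons with day 0 also share the same 2 day 0 arrays.

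Glycolysis splits glucose into pyruvate, with a small yield of ATP that needs no oxygen. Pyruvate is then reduced to lactate or oxidised in mitochondria, and pyruvate dehydrogenase kinases hold back the second route. Prolyl hydroxylases of the EGLN family mark the alpha subunits of hypoxia-inducible factor, HIF1A and EPAS1, for destruction while oxygen is present. In low oxygen the stabilised factor binds short ACGTG or GCGTG cores and raises transcription of glucose transporters, glycolytic enzymes and many other genes, EGLN1 and EGLN3 among them. Pluripotent stem cells are known for high glycolysis, and endothelial cells for making most of their ATP by it.

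Median probe-set intensity ranged from 88.7 to 93.2 over the 8 arrays, and the number of arrays limits the precision. Replicate arrays correlated over all genes tested with r of 0.997 on day 0, 0.953 on day 4, 0.937 on day 6 and 0.98 on day 8. The 3' to 5' signal ratio of the GAPDH control probe sets, a sign of RNA quality, was 1.71 to 1.91 on day 0, 2.15 to 2.22 on day 4, 3.41 to 3.73 on day 6 and 2.41 to 3.08 on day 8. That of ACTB was 8.92 and 10.4 on the day 0 arrays, 19.0 and 9.18 on replicates 1 and 2 of day 4, 31.0 and 16.0 on those of day 6, and 9.91 and 15.1 on those of day 8. Of 10 endothelial markers, 2 lay above the array median on the day 0 arrays and 9 or 10 on each sorted array. Of 9 pluripotency markers, 9 did so on the day 0 arrays and 4 to 6 on the sorted ones. Within day 4 and within day 6, replicate 1 and replicate 2 stood apart in markers of other cell types. The summed intensity of 10 yolk sac endoderm markers was 3509 on day 4 replicate 1 and 26161 on replicate 2, and 868 on day 6 replicate 1 and 7707 on replicate 2. Changes that these arrays move are also given without them. In RNA from many cells, fewer cells of a type and less RNA per cell cannot be told apart.

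Against day 0, the glucose transporter SLC2A3, the oxygen sensor EGLN1 and the hypoxia marker NDRG1 were higher on days 4, 6 and 8, and ADM and STC2, which code for secreted proteins, were lower. All levels below are log2 of intensity plus an offset of 32, and all changes are differences of group means on that scale, so the change of a dim gene is understated. A gene was called at an adjusted p under 0.05 with limma, adjusted over the 13647 genes tested. At day 4, 7 of the 36 were called, or 19.4%, beside 18.4% of all genes tested. Of these 4 rose, beside 8.52% of all genes, and 3 fell, beside 9.91%. At day 6, 8 of the 36 were called, or 22.2%, beside 23.4% of all genes, with 5 that rose (9.73% of all genes) and 3 that fell (13.6%). At day 8, 7 of the 36 were called, or 19.4%, beside 24.5% of all genes, with 4 that rose (10.4%) and 3 that fell (14.1%). In each comparison the share called was near that of all genes or below it. The median change of the 36 was -0.08 on day 4, 0.09 on day 6 and -0.20 on day 8, where the medians of all genes were 0.02, -0.03 and -0.03.

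Of the 22 genes of glucose transport, glycolysis and pyruvate use, 2 were called on day 4 (9.09%), 3 on day 6 (13.6%) and 3 on day 8 (13.6%). Of the 14 sensor, factor and hypoxia-induced genes, 5 (35.7%), 5 (35.7%) and 4 (28.6%) were called. The shares of all genes were 18.4%, 23.4% and 24.5%, and the difference between the 2 sets of genes was not tested. A moderated F test over the 4 groups called 5 of the 36 (SLC2A3, EGLN1, STC2, NDRG1 and MXI1), or 13.9%, beside 17.0% of all genes.

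These counts depended on single arrays. In each case given below with 1 array left out, the share of all genes called moved in the same direction as the count. Leaving out either day 0 array lowered the counts of days 4, 6 and 8 and of the F test. The day 8 count fell without either day 8 array and rose without either day 4 array. The F count rose without either day 6 array and fell without day 8 replicate 2. With day 4 replicate 1 and day 6 replicate 1 both left out, the spread rests on days 0 and 8 alone. The counts of days 4, 6 and 8 then rose, and so did the shares of all genes called. On day 4 more of the called genes among the 36 fell than rose, and the same held for all genes. After quantile normalization 6 rose and 2 fell on day 6, and 6 rose and 1 fell on day 8. Of all genes, 1409 then rose and 1910 fell on day 6 (24.3% called), and 1624 rose and 1928 fell on day 8 (26.0% called).

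**Figure D1:**
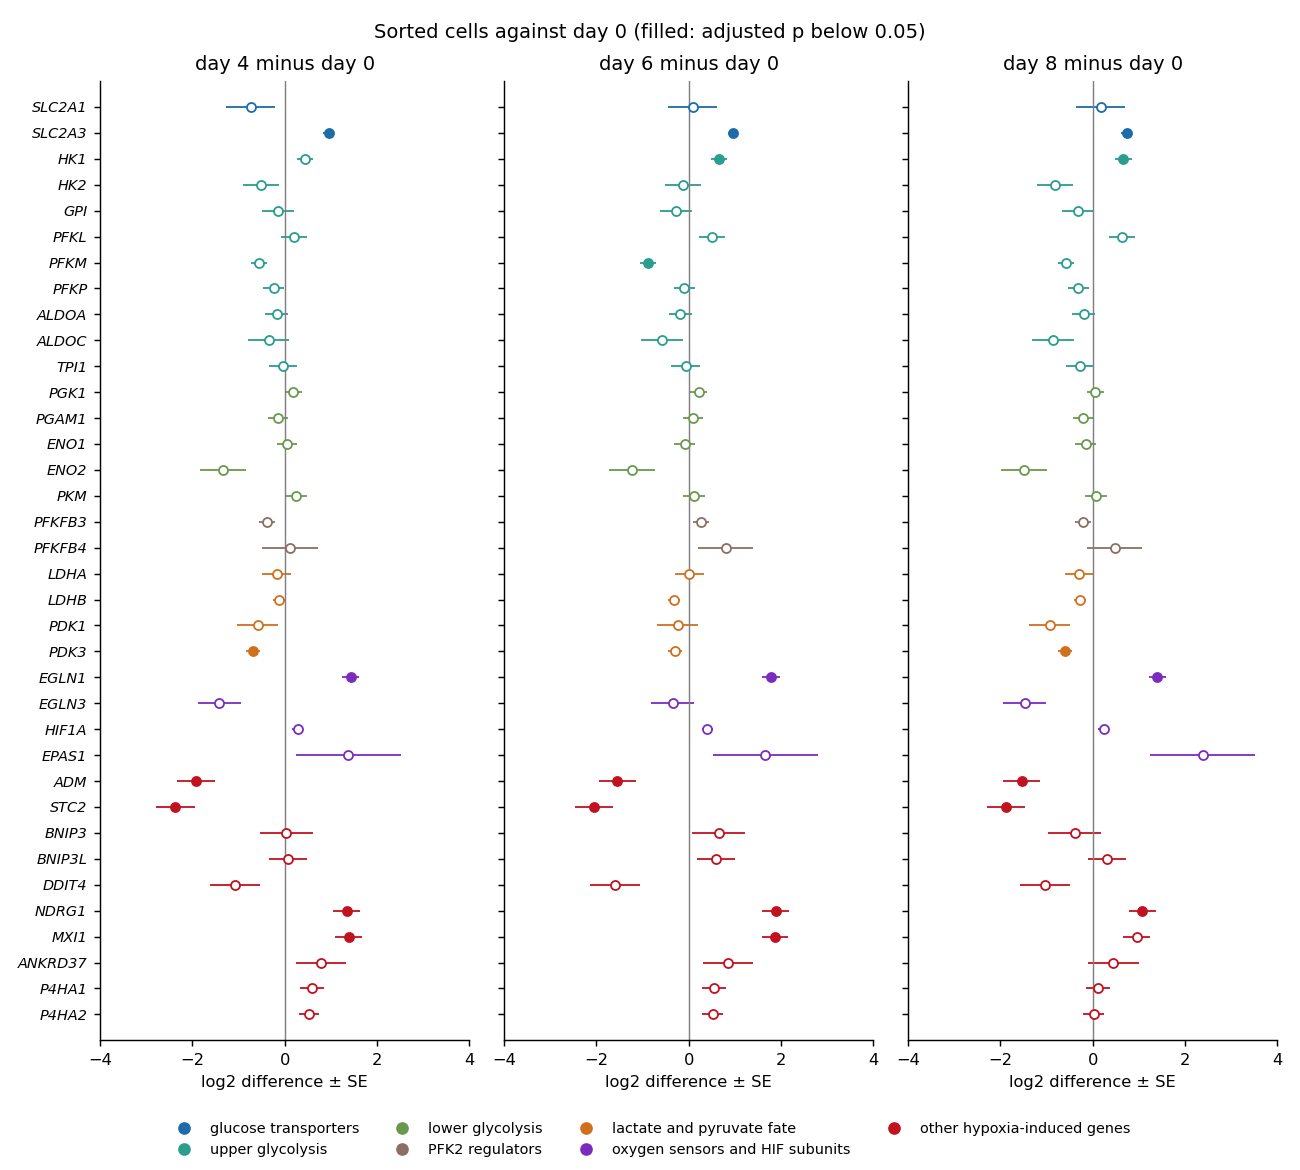
Change against day 0 in log2 units for each of the 36 genes on days 4, 6 and 8, grouped by role; bars are SE, filled points passed limma at an adjusted p under 0.05, and open points did not. The rises to see are EGLN1, NDRG1, MXI1 and SLC2A3, the falls STC2 and ADM, while most points of the glycolytic chain lie near 0.

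SLC2A3, the high-affinity glucose transporter GLUT3, rose on every sorted day. Its levels were 12.40 and 12.45 on the day 0 arrays, 13.38 and 13.37 on day 4, 13.41 and 13.36 on day 6, and 13.20 and 13.12 on day 8. All 6 sorted arrays lay above both day 0 arrays, and replicates differed little. The rise was 0.95 ± 0.12 on day 4, 0.96 ± 0.12 on day 6 and 0.74 ± 0.12 on day 8, which is 1.93-fold, 1.95-fold and 1.67-fold. Each compares 2 arrays with 2. Here and below, the SE is limma's moderated one, from the spread within groups over all 8 arrays, and not that of the arrays compared alone. The adjusted p was 0.00208, 0.0017 and 0.00524. The day 4 and day 6 calls held under every alternative run, and the day 8 call was lost without either day 0 array (adjusted p = 0.0697 and 0.059).

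SLC2A1, the transporter GLUT1 of most cells and a textbook hypoxia-induced gene, was not called on any day. It read 9.997 and 9.87 on day 0, 9.62 and 8.77 on day 4, 9.18 and 10.87 on day 6, and 10.14 and 10.07 on day 8. The day 6 arrays lay on either side of day 0, and both day 4 arrays lay below it. The change was -0.74 ± 0.53 on day 4 (adjusted p = 0.409), 0.09 ± 0.53 on day 6 and 0.17 ± 0.53 on day 8. With day 4 replicate 1 and day 6 replicate 1 left out it was called lower on day 4 (-1.16) and higher on day 6 (0.93, adjusted p = 0.00504). The difference between the changes of the 2 transporters was not tested.

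**Figure D2:**
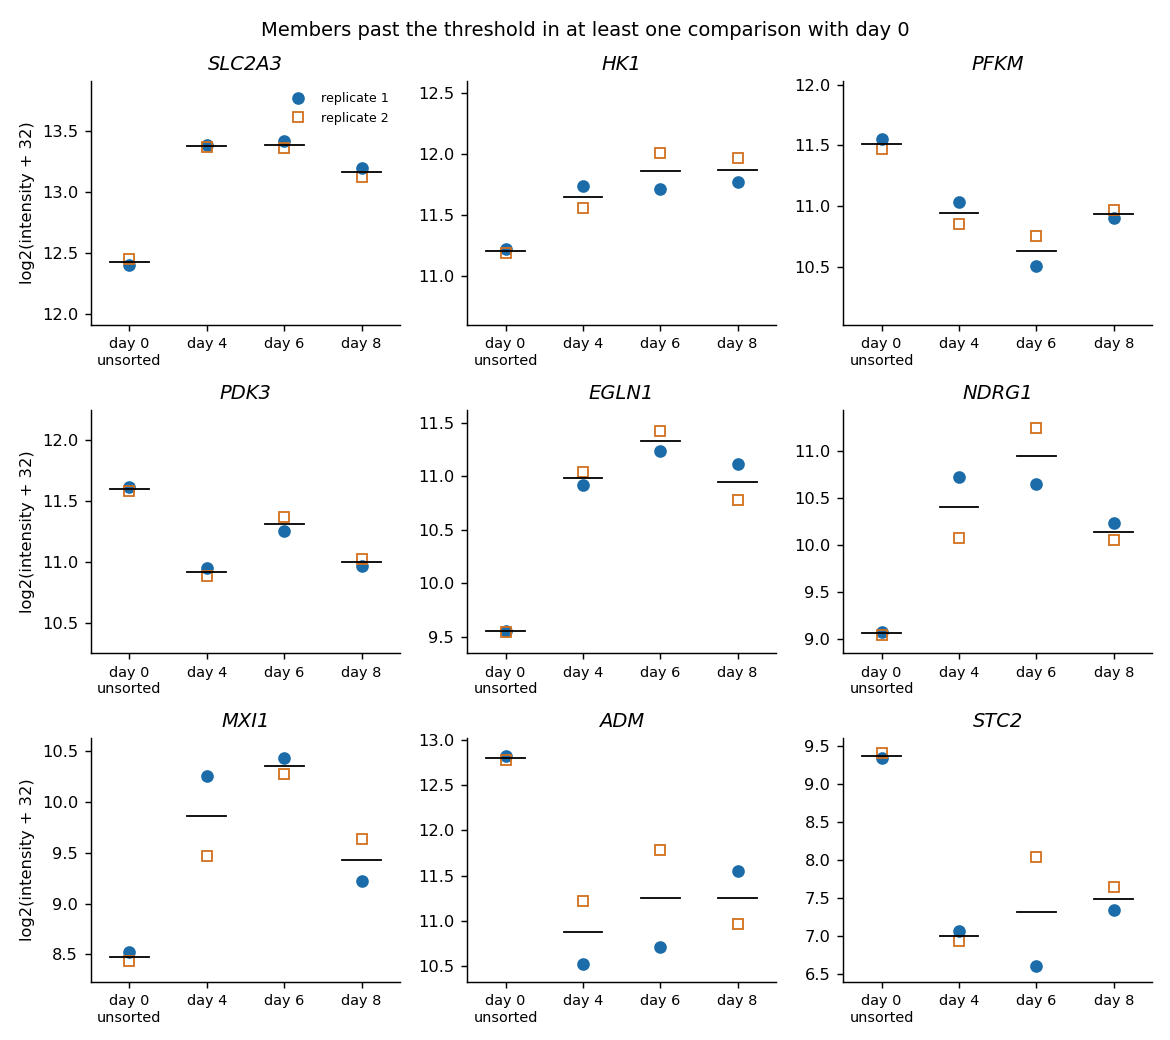
Levels on each of the 8 arrays, as log2 of intensity plus 32, for the 9 genes called in at least 1 comparison with day 0; points are arrays, circles and squares are replicates 1 and 2, and bars are group means. SLC2A3, EGLN1, NDRG1, MXI1 and HK1 sit higher on all sorted arrays than on day 0, and PFKM, PDK3, ADM and STC2 lower.

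Among the 9 genes of upper glycolysis, which takes glucose to the triose phosphates, limma called 0 on day 4, beside 18.4% of all genes. It called 2 on day 6 (22.2%, beside 23.4% of all genes) and 1 on day 8 (11.1%, beside 24.5%). At an unadjusted p under 0.05 on day 4 there were 2 of the 9, and 4288 of all 13647 genes. HK1, a hexokinase that traps glucose in the cell by phosphorylation, read 11.22 and 11.19 on day 0, 11.73 and 11.55 on day 4, 11.71 and 12.01 on day 6, and 11.77 and 11.97 on day 8. All sorted arrays were above day 0. It rose by 0.65 ± 0.18 on day 6 (1.57-fold, adjusted p = 0.0391) and by 0.67 ± 0.18 on day 8 (1.59-fold, adjusted p = 0.0356), and the change on day 4 was 0.44 ± 0.18 (adjusted p = 0.144). The day 6 call was lost without either day 0 array, day 6 replicate 2 or either day 8 array, with adjusted p from 0.0655 to 0.221, and also with no filter on dim genes (0.052). The day 8 call was lost without any day 0 or day 8 array, with adjusted p from 0.084 to 0.203. HK1 is also expressed in red cell precursors, and 8 erythroid markers had a summed intensity of 510 to 539 on day 0, 1062 and 1818 on day 4, 1659 and 6032 on day 6, and 8546 and 11999 on day 8. Their part in the HK1 change was not tested.

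PFKM, the muscle form of phosphofructokinase, the committed step of glycolysis, fell on day 6. Its levels were 11.55 and 11.47 on day 0, 11.04 and 10.85 on day 4, 10.51 and 10.76 on day 6, and 10.91 and 10.97 on day 8. Both arrays of each sorted day lay below both day 0 arrays. The change was -0.56 ± 0.17 on day 4 (adjusted p = 0.0693), -0.88 ± 0.17 on day 6 (1.84-fold lower, adjusted p = 0.0125) and -0.57 ± 0.17 on day 8 (adjusted p = 0.0541), so only day 6 passed. The day 6 call was lost without either day 0 array (0.127 and 0.0993), and PFKM was also called on day 4 under 4 alternatives and on day 8 under 9. PFKL, the liver form, changed by 0.20, 0.51 and 0.63 with an SE of 0.28, and PFKP, the platelet form, by -0.24, -0.09 and -0.32 with an SE of 0.23, neither called on any day. HK2, the hexokinase most often linked to hypoxia, changed by -0.52, -0.12 and -0.82 with an SE of 0.39, and was not called. Without day 4 replicate 1 its day 4 change was -1.16 and was called (adjusted p = 0.0239), and day 8 was called without either day 4 array (0.0242 and 0.0246). GPI, ALDOA, ALDOC and TPI1, which carry glucose 6-phosphate on to the triose phosphates, were not called with all arrays, and their changes ran from -0.86 (ALDOC on day 8) to -0.03 (TPI1 on day 4). GPI (-0.69), PFKP (-0.53), ALDOA (-0.51) and ALDOC (-1.05) were called lower on day 4 with day 4 replicate 1 and day 6 replicate 1 left out, and on day 8 PFKL was then called higher (0.63) and ALDOC lower (-0.86).

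Of the 5 genes of lower glycolysis, which takes triose phosphates to pyruvate and makes ATP, limma called 0 against day 0. Of all genes tested, 18.4%, 23.4% and 24.5% were called on days 4, 6 and 8. At an unadjusted p under 0.05 there was 1 of the 5 on each day, and 4288, 4877 and 5239 of all 13647 genes. PGK1, phosphoglycerate kinase, read 13.82 and 13.80 on day 0, 14.24 and 13.75 on day 4, 13.91 and 14.14 on day 6, and 13.75 and 13.98 on day 8. Its day 4 and day 8 arrays lay on either side of day 0. The change was 0.19, 0.22 and 0.05, each with an SE of 0.19. Of its 6 probe sets, another bright one changed by -0.12, -0.86 and -0.71, and the rest by -0.35 to 0.30. ENO2, the neuronal enolase, read 10.05 and 9.97 on day 0, and from 8.05 to 9.51 on the sorted arrays, all below day 0. Its change of -1.34, -1.23 and -1.49 with an SE of 0.50 did not pass (adjusted p = 0.115, 0.126 and 0.0699). ENO2 was called lower on days 4 and 8 without either day 6 array (adjusted p from 0.0164 to 0.0293) and on only the arrays compared (0.0212 and 0.00862). It was called on day 6 without day 6 replicate 2 (-1.96, 0.0186), and on day 8 with the replicate number as a block (0.0457). PGAM1, ENO1 and PKM were not called with all arrays, and the widest of their changes was 0.25 (PKM on day 4). PGAM1 was called lower on day 4 with day 4 replicate 1 and day 6 replicate 1 left out (-0.46, adjusted p = 0.0175). GAPDH, which was not among the 36, changed by -0.17, -0.19 and -0.17 with an SE of 0.12 and was not called.

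PFKFB3 and PFKFB4 make fructose 2,6-bisphosphate, which switches phosphofructokinase on, and neither was called against day 0. PFKFB3 changed by -0.38, 0.26 and -0.21 with an SE of 0.17. PFKFB4 read 8.74 and 10.44 on the day 6 arrays and 8.61 and 9.92 on the day 8 arrays, where day 0 read 8.85 and 8.73, so its replicates straddled day 0 on both days. With day 4 replicate 1 and day 6 replicate 1 left out, PFKFB4 was called higher on day 6 (1.65, adjusted p = 0.048).

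LDHA, the lactate dehydrogenase subunit that favours lactate, was not called. It read 13.86 and 13.79 on day 0, 14.12 and 13.20 on day 4, 13.60 and 14.08 on day 6, and 13.34 and 13.73 on day 8. The day 4 and day 6 arrays lay on either side of day 0, and both day 8 arrays below it. The change was -0.17, 0.01 and -0.29 with an SE of 0.32, and with day 4 replicate 1 and day 6 replicate 1 left out it was -0.63 on day 4 (adjusted p = 0.0432). LDHB, the subunit that favours pyruvate, changed by -0.12, -0.31 and -0.27 with an SE of 0.13 and was not called, except on day 6 with those 2 arrays left out (-0.41, adjusted p = 0.046).

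PDK3, a pyruvate dehydrogenase kinase, fell on days 4 and 8. Its levels were 11.62 and 11.59 on day 0, 10.95 and 10.89 on day 4, 11.26 and 11.37 on day 6, and 10.97 and 11.03 on day 8. All sorted arrays were below day 0, with the day 6 arrays nearest to it. It fell by 0.68 ± 0.15 on the log2 scale on day 4 (1.61-fold lower, adjusted p = 0.0222) and by 0.60 ± 0.15 on day 8 (1.52-fold lower, adjusted p = 0.0296), and the day 6 change was -0.29 ± 0.15 (adjusted p = 0.225). The day 4 call was lost without either day 0 array or day 4 replicate 2 (adjusted p from 0.0573 to 0.198), and the day 8 call without any day 0 or day 8 array (0.123 to 0.213). PDK3 has 5 probe sets, whose day 4 changes were -0.68, -0.28, 0.27, -1.22 and 0.40, and their mean was not called on day 4 or day 8 (adjusted p = 0.415 and 0.277). After quantile normalization the day 8 call was lost too (0.078). PDK1, the hypoxia-induced kinase of the family, read 10.93 and 10.78 on day 0, 11.01 and 9.53 on day 4, 10.79 and 10.44 on day 6, and 9.78 and 10.06 on day 8. Its day 4 arrays lay on either side of day 0, and the change of -0.58, -0.24 and -0.93 with an SE of 0.45 was not called. Without day 4 replicate 1 the day 4 change was -1.33 and was called (adjusted p = 0.0216), and day 8 was called without either day 4 array (0.0225 and 0.0223).

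EGLN1, the main oxygen-sensing prolyl hydroxylase and itself a HIF target, had the smallest adjusted p of the 36 genes over the 4 groups (0.0031 by the F test). Its levels were 9.55 and 9.54 on day 0, 10.92 and 11.04 on day 4, 11.23 and 11.43 on day 6, and 11.12 and 10.78 on day 8. Every sorted array was more than 1 log2 unit above both day 0 arrays. It rose by 1.43 ± 0.19 on day 4, 1.78 ± 0.19 on day 6 and 1.40 ± 0.19 on day 8, which is 2.70-fold, 3.44-fold and 2.64-fold, with adjusted p of 0.00263, 0.000892 and 0.00251. The calls on all 3 days held under every alternative run. Of its 4 probe sets, a dim probe set changed by only 0.15, 0.09 and 0.02. EGLN3, the other hypoxia-induced hydroxylase, read 8.72 and 8.90 on day 0, 7.95 and 6.85 on day 4, 8.33 and 8.61 on day 6, and 6.75 and 7.94 on day 8. All its sorted arrays lay below day 0, and the change of -1.42, -0.34 and -1.47 with an SE of 0.47 was not called (adjusted p = 0.0838, 0.652 and 0.061). EGLN3 was called lower on day 4 without day 4 replicate 1 (-1.97, adjusted p = 0.0472), and on day 8 under 6 alternatives, among them the one without day 8 replicate 2 (-2.07, adjusted p = 0.042). The difference between the changes of the 2 hydroxylases was not tested.

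HIF1A, the alpha subunit found in most cells, read 13.28 and 13.27 on day 0, 13.48 and 13.63 on day 4, 13.74 and 13.61 on day 6, and 13.55 and 13.49 on day 8. All 6 sorted arrays were above day 0 by a small margin. The change was 0.28 ± 0.12, 0.41 ± 0.12 and 0.25 ± 0.12 (adjusted p = 0.163, 0.0513 and 0.181), so no day passed. It was called after quantile normalization on day 6 (adjusted p = 0.0287) and day 8 (0.0417), on day 6 under 7 other alternatives, and on day 4 with day 4 replicate 1 and day 6 replicate 1 left out (0.046). HIF1A protein is set mainly by degradation, and protein was not measured.

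EPAS1, the alpha subunit HIF2A that is prominent in endothelium, split the arrays within days. It read 8.64 and 8.80 on day 0, 8.73 and 11.47 on day 4, 8.81 and 11.95 on day 6, and 11.02 and 11.18 on day 8. Replicate 1 of day 4 and of day 6 stayed at the day 0 level, while replicate 2 of each and both day 8 arrays were over 2 log2 units higher. The change of 1.38, 1.66 and 2.38 with an SE of 1.14 was not called (adjusted p = 0.47, 0.351 and 0.174). Without replicate 1 the day 4 change was 2.75 and the day 6 change 3.23, and without replicate 2 they were 0.01 and 0.09, so which array is left out fixes the value. The day 8 change of 2.38 was called on only the arrays of days 0 and 8 (adjusted p = 0.00015). The summed intensity of the 10 endothelial markers was 1096 to 1130 on day 0, 25318 and 31595 on day 4 replicates 1 and 2, 21561 and 31056 on day 6 replicates 1 and 2, and 26946 to 30590 on day 8. That of the yolk sac endoderm markers was 1319 to 1332 on day 0, 3509 and 26161, 868 and 7707, and 11639 to 14995 in the same order. Both sums were lower on the arrays where EPAS1 was low than on the other sorted arrays, and 9 of the 10 endothelial markers still lay above the array median there. The ACTB 3' to 5' ratio was higher on those replicate 1 arrays than on replicate 2 of the same day. The part of any of these in the EPAS1 levels was not tested.

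**Figure D3:**
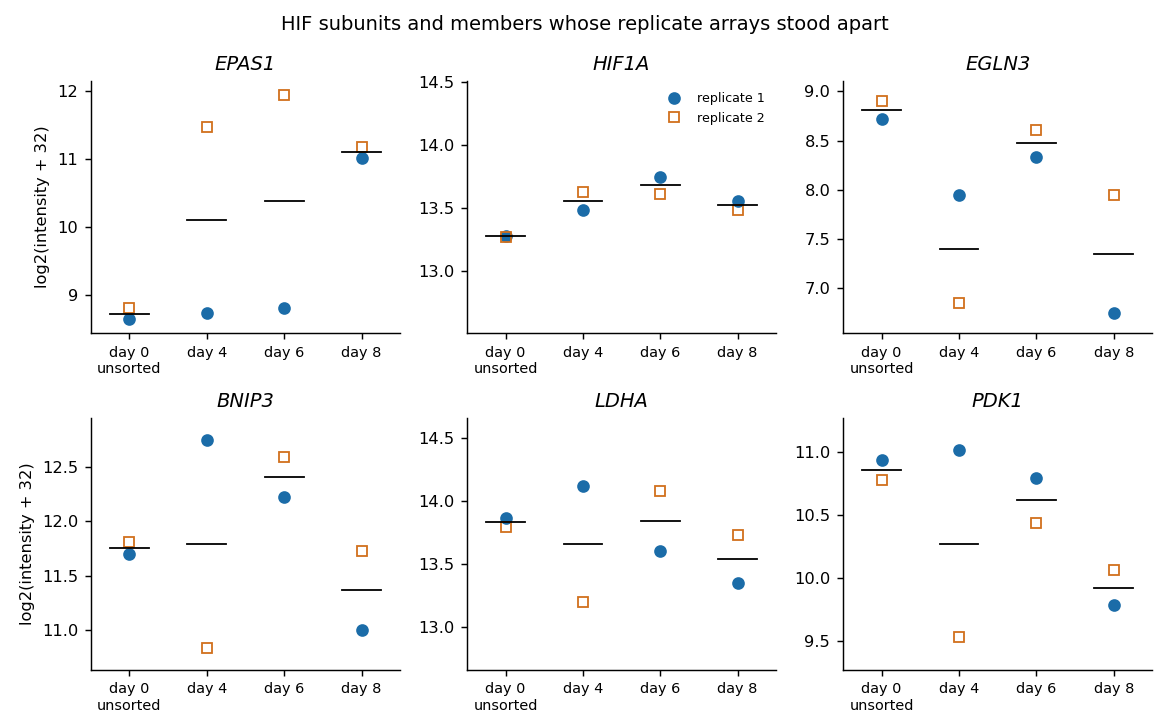
Levels on each of the 8 arrays, as log2 of intensity plus 32, for EPAS1, HIF1A, EGLN3, BNIP3, LDHA and PDK1; points are arrays and bars group means. EPAS1 on replicate 1 of days 4 and 6 (8.73 and 8.81) sits at the day 0 level, and the other sorted arrays lie between 11.02 and 11.95.

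NDRG1, a stress-induced gene used as a hypoxia marker, rose on every sorted day. It read 9.08 and 9.04 on day 0, 10.72 and 10.08 on day 4, 10.65 and 11.25 on day 6, and 10.23 and 10.05 on day 8. All sorted arrays lay above day 0, with day 6 replicate 2 the highest. It rose by 1.34 ± 0.29, 1.89 ± 0.29 and 1.08 ± 0.29, which is 2.53-fold, 3.70-fold and 2.11-fold (adjusted p = 0.0195, 0.00443 and 0.0357). The day 6 call held under every alternative run. The day 4 call was lost without either day 0 array or day 4 replicate 1 (adjusted p from 0.0697 to 0.13), and the day 8 call without any day 0 or day 8 array (0.124 to 0.178).

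MXI1, a MAX-binding repressor that opposes MYC and is induced by HIF, rose on days 4 and 6. It read 8.53 and 8.43 on day 0, 10.26 and 9.47 on day 4, 10.43 and 10.28 on day 6, and 9.22 and 9.64 on day 8. All sorted arrays were above day 0, with the day 6 arrays highest and closest together. The rise was 1.38 ± 0.29 on day 4 (2.61-fold, adjusted p = 0.0176) and 1.87 ± 0.29 on day 6 (3.67-fold, adjusted p = 0.00461). At day 8 the change was 0.95 ± 0.29 (adjusted p = 0.0536), and it passed under 9 of the alternatives, quantile normalization among them (adjusted p = 0.0344). The day 6 call held under every alternative run, and the day 4 call was lost without either day 0 array (adjusted p = 0.106 and 0.127).

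ADM and STC2, both secreted and both known as hypoxia-induced, fell. ADM, the vasodilator peptide adrenomedullin, read 12.82 and 12.77 on day 0, 10.53 and 11.22 on day 4, 10.72 and 11.79 on day 6, and 11.55 and 10.97 on day 8. All sorted arrays lay below day 0, and replicates within a day were apart. It fell by 1.92 ± 0.40 on the log2 scale on day 4, 1.54 ± 0.40 on day 6 and 1.54 ± 0.40 on day 8, which is 3.79-fold, 2.92-fold and 2.90-fold lower (adjusted p = 0.0181, 0.0347 and 0.0344). STC2, the glycoprotein stanniocalcin 2, read 9.34 and 9.40 on day 0, 7.06 and 6.94 on day 4, 6.60 and 8.04 on day 6, and 7.34 and 7.64 on day 8. The day 6 arrays were far apart, and both were below day 0. STC2 fell by 2.37 ± 0.42, 2.05 ± 0.42 and 1.88 ± 0.42 on the log2 scale, which is 5.16-fold, 4.13-fold and 3.68-fold lower (adjusted p = 0.00889, 0.0137 and 0.0185). A second STC2 probe set changed by -2.61, -2.53 and -2.62.

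Each call of ADM and STC2 was lost without either day 0 array. At day 4 this gave an adjusted p of 0.114 and 0.107 for ADM and 0.059 and 0.0641 for STC2. The ADM call on day 4 was also lost without day 4 replicate 1 (0.0828), and that on day 6 without day 6 replicate 1 or either day 8 array (0.0527 to 0.0893). The day 8 calls of both genes were lost without either day 8 array. After quantile normalization ADM was not called on day 6 or day 8 (adjusted p = 0.0527 and 0.0598). Some marker sums were also lower on the sorted arrays. The summed intensity of 10 smooth muscle and fibroblast markers was 37713 to 37836 on day 0 and 11523 to 24613 on the sorted arrays. That of 9 genes induced by cell dissociation was 33470 to 34990 on day 0 and 13468 to 29548 on the sorted arrays. That of 9 pluripotency markers was 55184 to 57650 on day 0 and 6102 to 10187 on the sorted arrays. A sum is set mostly by its brightest genes, and some genes of the first 2 lists went the other way. By group means, 2, 2 and 1 of the 10 smooth muscle and fibroblast markers were above day 0 on days 4, 6 and 8. Of the 9 dissociation genes, 4, 2 and 2 were, and of the 9 pluripotency markers 0 on each day. Within days the order varied. On day 6 the smooth muscle sum (20871 and 11523) and the dissociation sum (25314 and 13468) were higher on replicate 1. ADM and STC2 read lower there. On day 8 ADM and the dissociation sum were both higher on replicate 1. The part of these genes in the falls was not tested.

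The remaining 6 hypoxia-induced genes were not called on any day with all arrays. BNIP3, a mitophagy receptor, read 11.70 and 11.81 on day 0, 12.75 and 10.84 on day 4, 12.22 and 12.59 on day 6, and 11.01 and 11.73 on day 8, with a change of 0.04, 0.65 and -0.39 and an SE of 0.58. BNIP3L, its relative that clears mitochondria from maturing red cells, changed by 0.08 on day 4, 0.60 on day 6 and 0.31 on day 8 with an SE of 0.41. With day 4 replicate 1 and day 6 replicate 1 left out, BNIP3L on day 4 was called lower (-0.59, adjusted p = 0.0406) and on day 6 higher (0.78, adjusted p = 0.014). DDIT4, an inhibitor of mTOR signalling, read 11.33 and 10.92 on day 0 and from 8.62 to 10.43 on the sorted arrays, all below day 0. Its change was -1.07, -1.60 and -1.04 (SE 0.54, adjusted p = 0.234, 0.0781 and 0.207). On only the arrays compared, limma called it lower on day 4 (adjusted p = 0.0285) and day 8 (0.0134). DDIT4 was called lower on days 4 and 8 without either day 6 array (adjusted p from 0.021 to 0.0238), and on day 6 without day 6 replicate 2 (-2.51, 0.0031) and with the replicate number as a block (0.0496). ANKRD37, a small ankyrin-repeat protein, changed by 0.79, 0.85 and 0.45 with an SE of 0.55, and was called higher on day 4 without day 4 replicate 2 (1.73, adjusted p = 0.011) and on day 6 without either day 4 array (0.0316 and 0.0331). The collagen prolyl hydroxylases P4HA1 (0.59, 0.55 and 0.12, SE 0.26) and P4HA2 (0.53, 0.52 and 0.02, SE 0.22) were not called either, except P4HA2 on day 6 with day 4 replicate 1 and day 6 replicate 1 left out (0.75, adjusted p = 0.011).

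The promoter windows of 5 genes are shown because they set side by side genes that rose (EGLN1), fell (ADM and STC2) and were not called (LDHA and PGK1), all known as hypoxia-responsive. Each is the 250 bases before the gene's RefSeq start on GRCh38.p14, written 5' to 3' on the gene's strand. Capitals mark ACGTG or GCGTG on either strand, which reads CACGT or CACGC on the opposite one, and matches can overlap, as in CACGTG. The windows are chr1:231422288-231422537 (minus strand) for EGLN1, chr11:10304823-10305072 (plus) for ADM, chr5:173328415-173328664 (minus) for STC2, chr11:18394313-18394562 (plus) for LDHA and chrX:78103998-78104247 (plus) for PGK1.
EGLN1: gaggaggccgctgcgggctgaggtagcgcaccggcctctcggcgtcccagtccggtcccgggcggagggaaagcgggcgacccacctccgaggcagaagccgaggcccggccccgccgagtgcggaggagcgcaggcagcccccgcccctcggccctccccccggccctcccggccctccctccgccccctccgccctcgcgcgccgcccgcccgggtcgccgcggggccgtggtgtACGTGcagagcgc
ADM: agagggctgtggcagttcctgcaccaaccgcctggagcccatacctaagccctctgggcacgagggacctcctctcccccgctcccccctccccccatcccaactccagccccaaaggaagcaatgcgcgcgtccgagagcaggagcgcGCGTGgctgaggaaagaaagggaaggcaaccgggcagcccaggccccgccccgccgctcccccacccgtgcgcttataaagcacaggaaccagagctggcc
STC2: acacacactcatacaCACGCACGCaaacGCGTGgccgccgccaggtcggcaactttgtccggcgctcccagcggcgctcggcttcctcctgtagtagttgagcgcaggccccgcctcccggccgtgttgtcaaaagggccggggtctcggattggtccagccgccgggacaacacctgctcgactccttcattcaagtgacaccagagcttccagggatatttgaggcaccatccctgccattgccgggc
LDHA: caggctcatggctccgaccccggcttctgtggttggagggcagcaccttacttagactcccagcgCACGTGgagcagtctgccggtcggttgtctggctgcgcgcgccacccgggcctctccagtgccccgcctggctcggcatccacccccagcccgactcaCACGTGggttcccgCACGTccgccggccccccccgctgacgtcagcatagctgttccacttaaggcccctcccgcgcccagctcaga
PGK1: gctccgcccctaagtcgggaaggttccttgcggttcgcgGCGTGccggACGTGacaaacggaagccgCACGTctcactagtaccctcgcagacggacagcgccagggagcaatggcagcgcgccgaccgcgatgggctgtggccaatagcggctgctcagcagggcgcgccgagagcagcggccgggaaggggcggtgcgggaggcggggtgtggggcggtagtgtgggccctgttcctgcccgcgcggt
EGLN1 holds 1 ACGTG match close to its start. ADM holds 1 GCGTG match, STC2 3 GCGTG matches, LDHA 5 ACGTG matches, and PGK1 2 ACGTG matches and 1 GCGTG match. The MXI1 and HK1 windows hold neither core. A promoter window was found for 35 of the 39 genes, by symbol, and not for BNIP3L, NDRG1, SLC16A1 and SLC2A3. Of the 35, 22 held ACGTG or GCGTG (62.9%), beside 43.1% of all 27305 promoters in the table. ACGTG stood in 14 (40% beside 18.7%) and GCGTG in 14 (40% beside 31.9%). A match is a run of letters and not a binding site. Of the called genes that rose and had a window, EGLN1 alone held a match. Matches also occurred in windows of genes that fell and that were not called.

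Among the sorted days, which share the same sort, 0 of the 36 were called by limma between days 4 and 6, days 6 and 8 or days 4 and 8, where 0% of all genes were called in each. At an unadjusted p under 0.05 there were 2, 4 and 0 of the 36, and 722, 338 and 887 of all genes. From day 4 to day 6 the 2 were PFKFB3 (0.64) and PDK3 (0.39). From day 6 to day 8 the 4 were PFKFB3 (-0.47), EGLN3 (-1.13), NDRG1 (-0.81) and MXI1 (-0.92). The smallest adjusted p among the 36 was 0.843, 0.955 and 0.724 in these comparisons.

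The gaps between replicates of a sorted day are given here as a description with no test. At day 4 all 22 genes of glucose transport, glycolysis and pyruvate use read higher on replicate 1 than on replicate 2. Of the 36 genes, 31 did so (86.1%), beside 63.4% of all genes, and the median gap was 0.55 beside 0.12 for all genes. The day 0 arrays had the same direction with smaller gaps. There 20 of the 22 and 29 of the 36 (80.6%, beside 53.2% of all genes) read higher on replicate 1. The median gap of the 36 on day 0 was 0.06, beside 0.01 for all genes. Between the day 4 arrays 9 of the 36 differed over 2-fold, beside 6.66% of all genes. HK2, GPI, ALDOC, PDK1, EGLN3, BNIP3, BNIP3L and ANKRD37 were higher on replicate 1, with gaps of 1.91 for BNIP3 and 1.88 for ANKRD37, and EPAS1 was higher on replicate 2 (replicate 1 minus replicate 2 was -2.74).

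At days 6 and 8 the direction was the opposite, with 27 of the 36 higher on replicate 2 in each, where 56.4% of all genes on day 6 and 60.6% on day 8 were higher on replicate 1. Between the day 6 arrays 7 genes differed over 2-fold (19.4%, beside 9.25% of all genes), namely SLC2A1, ENO2, PFKFB4, EPAS1, ADM, STC2 and DDIT4, and between the day 8 arrays 2 did (5.56%, beside 1.58%), PFKFB4 and EGLN3. Between the day 0 arrays 0 did. Against the day 0 mean, the median of the 36 was 0.25 on day 4 replicate 1 and -0.44 on replicate 2, -0.01 and 0.14 on day 6, and -0.19 and -0.07 on day 8. The medians of all genes were 0.08 and -0.04 on day 4, -0.01 and -0.05 on day 6, and -0.02 and -0.06 on day 8. Day 4 replicate 1 held 26 of the 36 above the day 0 mean, and replicate 2 held 10. Of all 13647 genes, 7776 and 6326 lay above it on these arrays. The endoderm markers were lower and the smooth muscle and fibroblast markers higher on replicate 1 than on replicate 2 at both day 4 (24613 and 15352 for the latter) and day 6 (20871 and 11523). So was the ACTB 3' to 5' ratio (19.0 and 9.18 on day 4, 31.0 and 16.0 on day 6). Their part in the gaps was not tested.

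**Figure D4:**
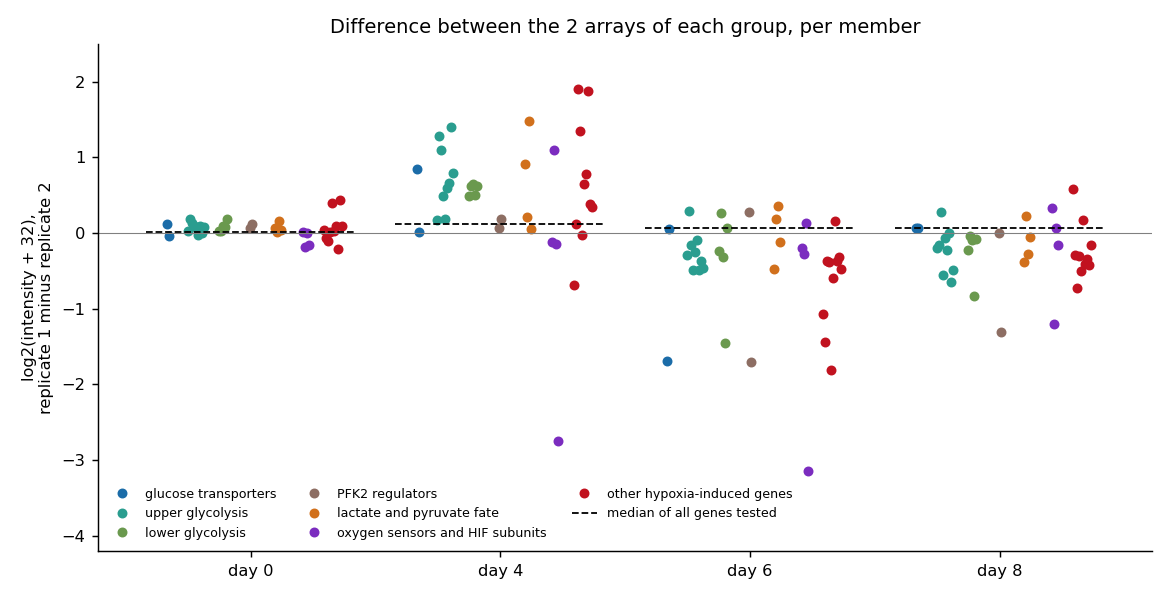
Difference between replicate 1 and replicate 2, in log2 units, for each of the 36 genes on each day; points above 0 are genes higher on replicate 1, and dashed lines are medians of all genes tested. Day 0 points lie near 0, with 29 of 36 above it. The day 4 points lie mostly above 0 (31 of 36) and those of days 6 and 8 mostly below it (27 of 36 each). The lowest points on days 4 and 6 are EPAS1.

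Of 25 further glycolysis and pyruvate genes tested, 1 rose and 1 fell on day 4 (8.00% called), 1 and 1 on day 6 (8.00%), and 1 and 2 on day 8 (12.0%), where 18.4%, 23.4% and 24.5% of all genes were called. PFKFB2, another enzyme that makes fructose 2,6-bisphosphate, fell by 0.73, 0.98 and 0.68 on the log2 scale (adjusted p = 0.0119, 0.00321 and 0.0134). The transporter SLC2A6 rose by 0.77 on day 6 and 0.57 on day 8, MPC1 of the mitochondrial pyruvate carrier rose by 0.77 on day 4, and LDHC fell by 0.74 on day 8. Apart from PFKFB2 on day 6, these calls were each lost without either day 0 array, and those on day 8 also without either day 8 array. Of 33 further HIF pathway and hypoxia genes tested, 0 rose and 3 fell on day 4 (9.09%), 2 rose and 3 fell on day 6 (15.2%), and 1 rose and 5 fell on day 8 (18.2%), beside the same shares of all genes. The rises were of the histone demethylase KDM3A (0.99 on day 6 and 0.72 on day 8) and of GBE1, which branches glycogen (1.03 on day 6), and both genes are named after their values were seen. These calls were lost without either day 0 array.

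CA12, a membrane carbonic anhydrase, read 8.39 on both day 0 arrays and from 6.60 to 6.85 on the sorted ones, and fell by 1.56, 1.70 and 1.66 on the log2 scale (adjusted p = 0.000136, 8.83e-05 and 9.79e-05). ARNT2, a partner subunit of the HIF alpha subunits, read 8.40 on both day 0 arrays and from 6.52 to 7.24 on the sorted ones, and changed by -1.77, -1.70 and -1.49 (adjusted p = 0.00236, 0.0024 and 0.00418). These calls of CA12 and ARNT2 held under every alternative run. LOX, which crosslinks collagen, changed by -3.26, -2.81 and -3.05 (adjusted p = 0.00915, 0.0142 and 0.0103), and its calls were lost without either day 0 array. BHLHE40, also named after its values were seen, fell by 0.90 on day 8, a call lost without any day 0 or day 8 array. VEGFA, the vascular growth factor, was called on day 8 (-1.13, adjusted p = 0.0118), with levels of 9.70 and 9.64 on day 0 and 8.53 and 8.54 on day 8, and this was lost without any day 0 or day 8 array. ARNT, the usual partner of HIF1A, was not called, and VHL, which binds the hydroxylated subunit, was too dim to test. Of 6 pentose phosphate genes, RPIA (0.78) and PGLS (0.75) rose on day 4. TKT, transketolase, fell by 1.09 on the log2 scale on day 6 and 0.89 on day 8, where PGLS rose (0.81) and RPE fell (-0.82). The calls made up 33.3% of the 6 on day 4, 16.7% on day 6 and 3 of the 6 on day 8, beside 18.4%, 23.4% and 24.5% of all genes. These calls were also lost without either day 0 array.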

How the data were processed

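Total RNA of 8 samples was hybridised to Affymetrix arrays, and the deposited values are linear intensity per probe set that the authors made with MAS5, per the submitters' processing notes, with a version that is not given in the sources used here. Samples were grouped by title and developmental stage, since the source names of some day 6 and day 8 samples read day 4. Of 54675 probe sets, 41091 had 1 gene symbol in the platform annotation, 1801 several and 11721 none, and 62 were controls. 41037 of the first matched the gene table, and 0 symbols changed. Each gene took the probe set with the highest mean, with cross-hybridising sets (_x_at) used only where no other existed. The deposited intensity was taken to log2 after adding 32, so changes are on a log2 scale. Genes above the array median on 2 of 8 arrays were tested with limma 3.58.1 in R 4.3.3 (1 fit of all arrays, eBayes with trend, Benjamini-Hochberg, two-sided, 4 residual degrees of freedom), checked on simulated data. Figures and tables used Python 3.11.15, pandas 2.3.3 and matplotlib 3.10.9.

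The members, the 3 lists of other pathway genes, the 7 marker lists and the tests were chosen with earlier results of these data known. The text names every measured member, with values on each array for those called and for HIF1A, EPAS1, SLC2A1, LDHA and PGK1. From each other pathway list it names up to 4 called genes with the smallest adjusted p of the F test, and also GAPDH, VEGFA, ARNT and VHL. Other members given on each array, and the replicate gaps, were chosen after their values were seen. Alternatives were the offset (1 or 128), no filter or a 75th percentile filter, quantile normalization, log2 values centred on each array's median, probe sets averaged per gene, no trend, only the arrays compared, only the sorted arrays, a replicate block, and arrays left out. Deviations of same-numbered arrays from their group means correlated between days 4 and 6 (r = 0.6), 4 and 8 (0.188) and 6 and 8 (0.407) but not between day 0 and these days (-0.025 to 0.024), so the numbers tie the sorted arrays in the data, and no label states what they share. Promoter sequences are from RefSeq.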

Additional observations from a re-analysis of the deposited data

How the results depend on the processing

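The counts of called genes under the smaller and larger offset, both filters, quantile normalization, median centring, the mean of probe sets and no trend stayed within 1.5 times those reported. Fitted on only the arrays of the groups compared, 5 genes were called at day 6 against day 0 and 17 at day 8. Of all genes, 19.9% and 49.7% were then called. HK1, ADM and STC2 were lost at day 6. With day 4 replicate 1 and day 6 replicate 1 both left out, 22 were called by the F test, 23 at day 4, 16 at day 6 and 17 at day 8 against day 0, and the lone arrays of days 4 and 6 were then taken to vary like the other groups. In that setting BNIP3L at day 4 turned from 0.08 to -0.59. The shares of all genes called by the F test and at days 4, 6 and 8 rose in that setting too. The cause of these moves was not tested. In the ranges given next for the F test and against day 0, the share of all genes called moved as well. It was lower than with all arrays at the lowest counts and higher at the highest. With single arrays left out, the counts ranged from 0 to 10 by the F test, from 2 to 10 at day 4, from 4 to 10 at day 6 and from 1 to 12 at day 8, and between sorted days from 0 to 0. Of 22 calls of a gene on a day, 7 held in every alternative and 15 were lost without a day 0 array. With the replicate block, 6 were called by the F test, 7 at day 4, 10 at day 6, 9 at day 8 and 0 between sorted days. The shares of all genes were 22.2%, 22.3%, 28.4%, 31.1% and 0% in the same order. The block added HIF1A and DDIT4 at day 6 and MXI1 and ENO2 at day 8, and its counts between sorted days equal those without it. With 2 arrays a group and 4 residual degrees of freedom, a gene not called may still differ.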
